A study of Saccharomyces cerevisiae with 18 samples.

Results

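RNA levels were compared between 3 ethanol-grown cultures of budding yeast (Saccharomyces cerevisiae) in which the FAR1 transcript read far above wild type and 3 ethanol-grown wild type cultures. The arrays were chosen by a measured value. Of the 6 ethanol arrays labelled far1 deletion or FAR1OE, those with a deposited intensity above 500 for the FAR1 (YJL157C) probe set were taken, which gave 3 of the 18 arrays of the series, and the comparison used 6. FAR1 read 2554 and 2722 on the arrays labelled FAR1OE 1 and 2 and 2596 on the array labelled far1 deletion 3, against 29.3, 17.9 and 25.5 in wild type. These values chose the arrays and were not tested. The 3 ethanol arrays not taken read 4.8, 5.3 and 3.3, the last of them being the array labelled FAR1OE 3, so FAR1 went against the label on 2 arrays. No array of the series read between 29.3 and 556.9, and the ethanol arrays just inside and just outside the threshold lay at 2554 and 5.3.

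All cells had the W303-1A background, a MATa strain with the alleles ade2-1, his3-11, trp1-1, ura3-1 and can1-100 and with the double LEU2 mutation leu2-3 and leu2-112. The FAR1OE strain carried in addition a plasmid, pTet-FAR1-15Myc, which places Myc-tagged FAR1 under a tetracycline-type promoter. The far1 deletion was given as far1::his3. The wild type arrays stood for the background strain, and no control with an empty plasmid was named. Cells grew exponentially in synthetic complete medium with ethanol as the carbon source, and per the labels each group came from independent triplicates. In what follows the first 3 arrays are called the high FAR1 arrays, given in the order FAR1OE 1, FAR1OE 2 and the array labelled far1 deletion 3. The other 3 ethanol arrays of these strains are called the absent FAR1 arrays.

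Far1 inhibits the Cdc28 kinase bound to G1 cyclins and so holds cells before Start, the point of commitment to a new cell cycle. In haploid cells exposed to mating pheromone it also carries Cdc24, the exchange factor of the small GTPase Cdc42, to the site of polarised growth. In growing cells it is degraded at Start, and its amount has been linked to the size at which a cell begins to bud. The study's design asks how FAR1 dosage alters the transcript pattern in each carbon source, and its title names Sfp1, which activates ribosome synthesis genes, beside the RNA and protein content of cells.

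The median intensity was 17 to 19.4 on the high FAR1 arrays and 14.4 to 19.5 on the wild type arrays. The log2 ratio of the 3′ to the 5′ actin probe set was 0.50 to 1.04 on the high FAR1 arrays and 0.61 to 0.74 in wild type. For SRB4 the same ratio was 1.858 to 2.487 with high FAR1 and 1.569 to 1.862 in wild type, nearly apart. The TBP ratio, at 1.19 to 1.51 and 1.37 to 1.81, leaned the other way. A labelled control added to every sample, BioDn, separated the groups: its 5′ to 3′ ratio was 0.541 to 0.575 on the high FAR1 arrays, against 0.200 to 0.231 in wild type. Those of absent FAR1 lay at 0.536 to 0.571, on the side of the high FAR1 arrays, so within ethanol the ratio and the wild type label cannot be told apart. Of 7 markers of a cells, the mating type of the label, STE2, the alpha factor receptor, read 0.8 to 2.1 on the high FAR1 arrays and 1.1 to 1.4 in wild type. MFA2 read 6.6 to 11.4 with high FAR1 and 1.8 to 5.4 in wild type, and STE6 3.4 to 4.9 and 2.1 to 2.9, both higher without overlap though dim. The groups overlapped for MFA1, BAR1 and AGA2. ASG7 read at most 0.5 on any array, and the 7 genes summed to 20.1 to 35.9 with high FAR1 and 12.7 to 21.0 in wild type. The 4 alpha cell genes summed to 545.3 to 660.2 with high FAR1 and 557.7 to 688.6 in wild type. Most of this was the pheromone gene MF(ALPHA)1, at 445.7 to 568 on the high FAR1 arrays and 482 to 611 in wild type, which goes against the MATa label in both groups. STE3 read 65.5 to 87.5 with high FAR1 and 48.4 to 60.0 in wild type, and SAG1 18.2 to 20.5 and 11.2 to 14.1. MF(ALPHA)2 was dim, at 3.7 to 5.1 and 3.6 to 4.5, though it reached 1010.7 elsewhere in the series. The 6 sporulation genes summed to 75.4 to 110.0 on the high FAR1 arrays and 49.0 to 65.1 in wild type, and they did not move together. With high FAR1, IME1 read 35.9 to 68.5 against 29.1 to 32.3 in wild type. The kinase gene IME2 read 13.6 to 21.1 against 2.3 to 7.2, and SPS1 6.5 to 9.5 against 3.1 to 3.5. SPS4 was lower, at 2.5 to 3.7 against 4.3 to 6.4, and the groups overlapped for NDT80 and SPR3. The part of these controls and markers in the results below was not tested, except where a comparison within 1 side of the BioDn ratio is given.

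Of 5545 genes tested besides FAR1, 136 changed on the high FAR1 arrays relative to wild type, which is 2.45% (limma, adjusted p under 0.05). Of these, 70 rose (1.26%) and 66 fell (1.19%), and a 2-fold change was reached by 41 of the rises and 14 of the falls. At an unadjusted p under 0.05 there were 895, and 2536 of the 5545 log2 changes were positive. Counts for gene lists below stand against these shares. With only the 2 FAR1OE-labelled arrays, 108 genes changed (1.95%), 57 higher (1.03%) and 51 lower (0.92%), and 87 of them were among the 136. With the groups as labelled, FAR1OE 3 included, 21 changed (0.379%). On the deposited scale, without normalization between arrays, all genes together had a median log2 change of 0.13 and 46 genes were called, 41 higher and 5 lower. The falls below are therefore falls relative to the other genes. Of them, ENO2, NNK1, CMR1 and ADA2 were called on the deposited scale too, and no called gene described below turned its sign there. The count went to 58 without the array FAR1OE 2, to 61 without wild type 2 and to 67 without wild type 3. With the BioDn ratio, above or below 0.3, as a block over all 18 arrays, 29 genes were called, of which 19 were among the 136. These were HIS3, TRP1, CAN1, CDC42, ATG26, YEL1, MRX3, GPM3, RTS3, PRM5, ALD2, DDR48, GPR1, SPI1, SVP26, COX26, PHO86, ENO2 and NNK1. No other change from wild type described below was called with that block. Only the far1 deletion glucose arrays lay on both sides of the ratio, so the block effect was estimated from them alone. Leaving out any 1 of the 6 arrays, all these 19 calls except that of COX26 stood, as did those of GIC2, SST2, TEC1, PIR3, PGK1, SSA3, MEP2, GDH3, DAL5, ARG1, LYS9, HUG1, DPI8, CMR1, ADA2, CHO1, PSD1, FTR1, AHP1, NRG2 and SNR63. The calls of the others described below were lost without at least 1 array. Groups of 3 did not overlap for 1291 genes (23.3%), so an absence of overlap alone marks no gene. Among probe sets matched to no gene, which enter none of these counts, 48 of 1758 were called (2.73%).

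**Figure D1:**
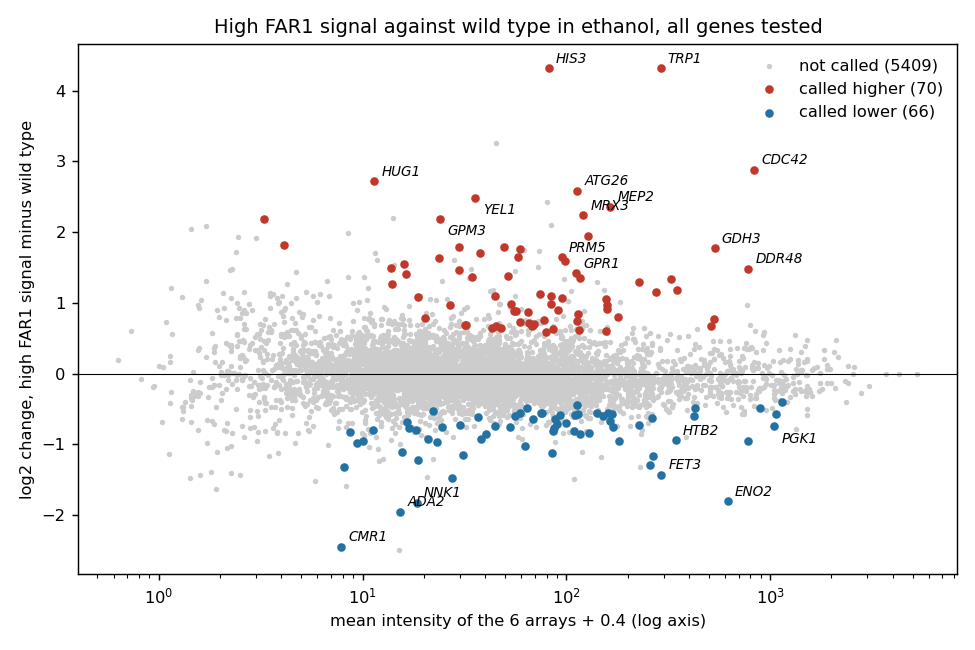
Log2 change on the high FAR1 arrays relative to wild type in ethanol (vertical axis, normalized values) against the mean intensity of the 6 arrays plus 0.4 (horizontal log axis), 1 point per gene tested. The 70 genes called higher are red, the 66 called lower are blue, and HIS3, TRP1 and CDC42 lie highest among the genes called.

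The 2 largest rises were in genes whose W303-1A alleles are defective. HIS3, an enzyme of histidine synthesis used as a selection marker, read 127, 205 and 136 on the high FAR1 arrays, against 7.7, 6.4 and 7.5 in wild type. TRP1, an enzyme of tryptophan synthesis and also a marker, read 461, 549 and 643 with high FAR1, against 29.6, 31.9 and 24.3 in wild type. The groups were far apart, with log2 changes of 4.32 ± 0.20 for HIS3 and 4.31 ± 0.27 for TRP1 (n = 3 each, limma, adjusted p 1.5e-10 and 1.2e-08). Values after ± here and below are standard errors (SE) from the fit over all arrays of the series. The absent FAR1 arrays were as high, at 150.0, 214 and 171 for HIS3 and 291, 663 and 475 for TRP1, and high FAR1 differed from absent FAR1 in neither at the threshold (adjusted p 0.5 and 0.8). The array labelled FAR1OE 3 was among these, and the labels name a his3 insertion for the far1 deletion strain only. Both probe sets of HIS3 were called, at 4.32 and 4.74.

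URA3, a marker for uracil synthesis, behaved differently. It read 164, 163 and 182 on the high FAR1 arrays, 39.6, 63 and 52.7 on the absent FAR1 arrays and 211, 231 and 271 in wild type. Its level on the high FAR1 arrays exceeded that on the absent FAR1 arrays by a log2 difference of 1.73 ± 0.22 (adjusted p 0.00016), while the log2 difference from wild type, -0.74, did not pass the test (adjusted p 0.086). LEU2 (log2 change -0.76, adjusted p 0.53) and ADE2 (0.21, adjusted p 0.65) were not called. CAN1, the arginine permease named in can1-100, read 37.6, 50.6 and 64.6 with high FAR1, against 14.8, 14.7 and 22.7 in wild type, and rose by 1.37 ± 0.23 (adjusted p 0.0026). It was also higher than on the absent FAR1 arrays (15.1, 24.6 and 19.5; log2 difference 1.24, adjusted p 0.006).

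**Figure D2:**
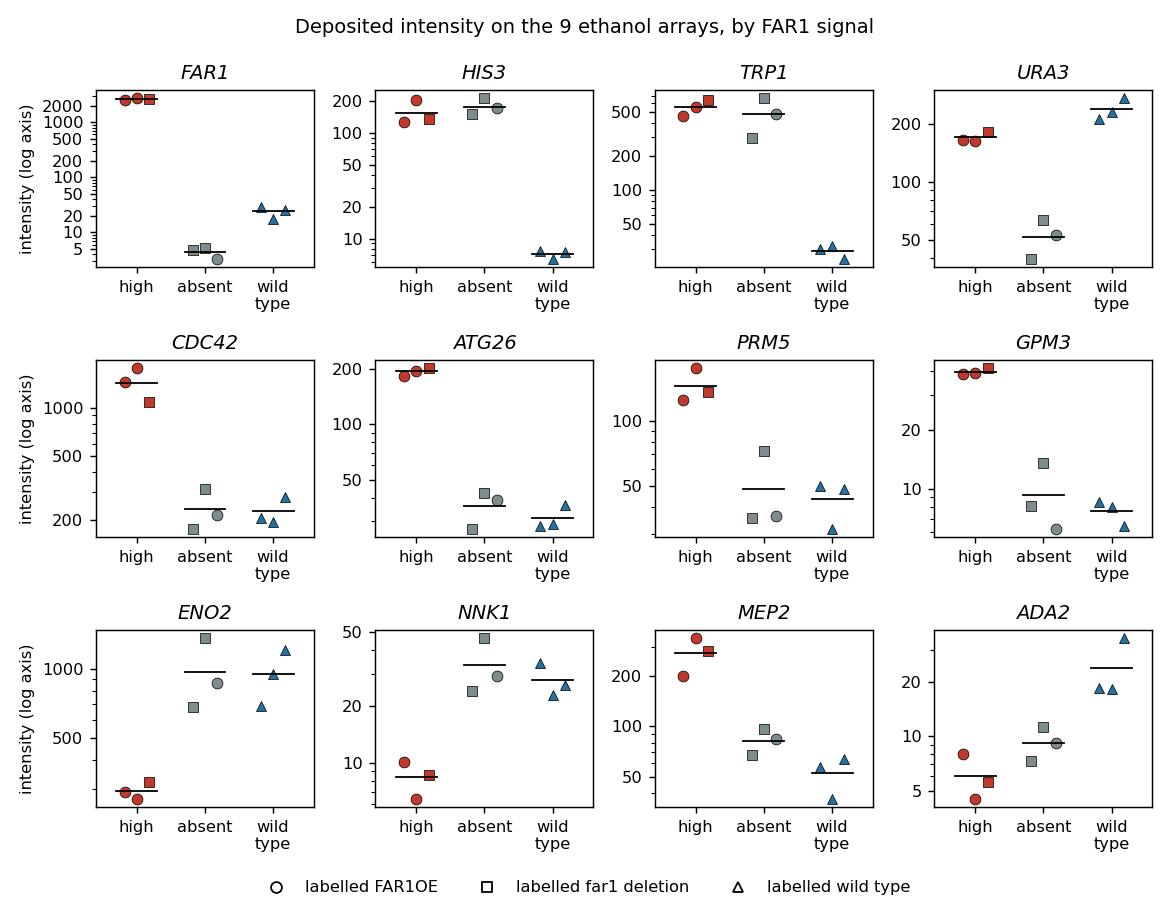
Deposited intensity of 12 genes (vertical log axes) on the 3 high FAR1, 3 absent FAR1 and 3 wild type arrays in ethanol; circles are arrays labelled FAR1OE, squares far1 deletion, triangles wild type, and lines are group means. HIS3 and TRP1 were high on the high and the absent FAR1 arrays alike, CDC42, ATG26, PRM5, GPM3 and MEP2 were high on the high FAR1 arrays, and ENO2 and NNK1 were low on them.

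Transcripts of the polarity and pheromone machinery that Far1 works with were led by CDC42. CDC42 read 1466, 1778 and 1087 on the high FAR1 arrays, against 206, 194 and 278 in wild type. All 3 high FAR1 arrays, the one labelled far1 deletion included, stood well above wild type, and the log2 change was 2.88 ± 0.12 (adjusted p 3.5e-11). The absent FAR1 arrays read 175, 311 and 213, near wild type, and high minus absent FAR1 was 2.96 ± 0.12 (adjusted p 2.3e-11). With the groups as labelled, FAR1OE 3 among the FAR1OE arrays, the adjusted p was 0.25. The genes on either side of CDC42 on the chromosome, ECM22 (-0.04) and BNA5 (-0.31), were not called. YEL1, a rise given below, does have a called neighbour, SKT5 (1.10, adjusted p 0.015), as do PRM5 in RHO3 and RML2 in VMA8.

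Of 22 tested polarity genes, 2 rose and 1 fell, with 1.26% of all genes higher and 1.19% lower. The other rise was GIC2, an effector of Cdc42, at 85, 85.8 and 90.9 on the high FAR1 arrays, against 45.2, 35 and 46.4 in wild type. The groups were apart and the change was 0.86 ± 0.12 (adjusted p 0.00048). Its paralog GIC1 moved the other way, at 12.3, 12.6 and 14.5 with high FAR1 against 17.6, 15.5 and 24.7 in wild type, a log2 change of -0.69 (adjusted p 0.038) that was not called with the FAR1OE-labelled arrays alone (adjusted p 0.073). CDC24, the exchange factor that Far1 carries, had a log2 change of 0.18, BEM1, the scaffold beside it, 0.18, and the formin BNI1 -0.16. The kinases STE20 (-0.24) and CLA4 (0.22) and the GTPase-activating genes RGA1 (0.54) and BEM3 (-0.02) were not called either. The median of the list was 0.02, against -0.03 over all genes tested.

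Of 34 pheromone response genes, 5 rose and 0 fell, with 1.26% of all genes higher, and the median was 0.16. GIC2 is 1 of the 5. PRM5, a membrane protein induced by pheromone and cell wall stress, read 125, 176 and 137 on the high FAR1 arrays, against 49.7, 31.5 and 48.5 in wild type, and rose by 1.64 ± 0.19 (adjusted p 4.3e-05). On the absent FAR1 arrays it read 35.4, 72.6 and 36.3, and the difference from them was 1.63 (adjusted p 5.3e-05). SST2, which switches off the pheromone G protein, was dim throughout, at 7.7, 4.4 and 5.4 on the high FAR1 arrays and 0.8, 0.7 and 3.4 in wild type. Its change of 1.81 ± 0.32 (adjusted p 0.0037) rests on values near the floor and was 0.91 with the 25th percentile as pseudocount.

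TEC1, a transcription factor of filamentous growth, read 124, 156 and 153 with high FAR1, against 73, 71.2 and 94 in wild type, a rise of 0.74 ± 0.14 (adjusted p 0.006). FUS3, the mating kinase that phosphorylates Far1, read 82.6, 95.9 and 82 with high FAR1, against 52, 40.9 and 50 in wild type, a rise of 0.67 ± 0.15 (adjusted p 0.021). FUS3 has 3 probe sets, of which 1 was called, and their changes ran between -0.86 and 0.67. STE12, the factor that drives the pheromone genes, was not called (log2 change 0.18, adjusted p 0.77). The 5 a cell genes tested gave 0 calls in limma (1 at an unadjusted p under 0.05), with a median of 0.70, and the 4 alpha cell genes 0 calls (0 unadjusted), with a median of 0.12.

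Of 25 tested genes of Start, FUS3 alone passed the test, which is near the 2.45% called over all genes. At an unadjusted p under 0.05 there were 9 of the 25, against 895 of 5545 over all genes, and the median was -0.08, with 0.12 on the deposited scale. The G1 cyclin CLN2 read 76.5, 85.5 and 75.9 on the high FAR1 arrays, against 54.2, 59.8 and 78.8 in wild type (log2 change 0.14, adjusted p 0.63). CLN1 read 82.8, 77.2 and 113 with high FAR1, against 87.8, 78.6 and 97 in wild type (-0.17, adjusted p 0.73), and CLN3 169, 162 and 240.3 with high FAR1, against 137, 128 and 207 in wild type (0.05 ± 1.21, adjusted p 0.99). The groups overlapped for each of the 3 cyclins. SIC1, the other inhibitor of Cdc28 at this stage, had a log2 change of -0.30 (adjusted p 0.22), CDC28 itself 0.29 (0.23) and the repressor WHI5 -0.11 (0.95). SWI4, which encodes the subunit of SBF that contacts DNA, read 15.3, 14.1 and 21.1 with high FAR1, against 8.1, 6.5 and 13 in wild type, and missed the threshold at 0.75 (adjusted p 0.097). CDC34, a ubiquitin-conjugating enzyme, read 68.8, 80.6 and 88.9 with high FAR1, against 30.9, 29.6 and 35.2 in wild type (1.10 ± 0.31, adjusted p 0.067). Its groups did not overlap, though it was not called. The standard errors of CLN3 and CDC34 pool the spread within every group of the series. They are therefore no measure of the spread among the ethanol arrays compared here. Which arrays widened them was not tested.

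The called genes of the G1/S and CLB2 lists all fell. Of 45 targets of the G1/S factors, 0 rose and 3 fell, beside 1.19% of all genes lower, with a median of -0.27. They were HO, the mating type endonuclease (-1.02 ± 0.23, adjusted p 0.021), RNR1, the large subunit of ribonucleotide reductase (-0.57, adjusted p 0.047), and HTZ1, a histone variant (-0.59, adjusted p 0.032). HO read 51.7, 34.9 and 50.1 on the high FAR1 arrays, against 68.9, 69.6 and 99.9 in wild type, without overlap, while RNR1 and HTZ1 overlapped before normalization. Of 25 genes of the CLB2 cluster, which peaks before mitosis, 0 rose and 2 fell, with a median of -0.19. The mitotic cyclin CLB1 read 25.3, 25 and 34 with high FAR1, against 41.8, 39.2 and 60.2 in wild type, and fell, with a log2 change of -0.93 ± 0.19 (adjusted p 0.012). HOF1, which acts at cytokinesis, changed by -0.62 (adjusted p 0.014). Absent FAR1 minus wild type had medians of -0.15 for the G1/S list and -0.16 for the CLB2 list, with 0 calls in limma. High minus absent FAR1 had medians of -0.06 and -0.01, with 1 rise and 0 falls in the G1/S list and 0 calls in the CLB2 list. The shift of both lists below wild type was thus not particular to the high FAR1 arrays. In RNA from whole cultures, fewer cells at a stage and less of a transcript per cell cannot be told apart.

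Histones were represented by 5 tested genes, all 5 with negative changes, a median of -0.57 and 2 falls. These were HTZ1, already counted among the G1/S targets, and HTB2. HTB2, a histone H2B gene, read 319.6, 232 and 207 on the high FAR1 arrays, against 365, 412 and 527 in wild type. The groups did not overlap, and the change was -0.94 ± 0.18 (adjusted p 0.0071). The M/G1 list had 2 rises and 1 fall among 23 genes. PIR3, a cell wall protein, read 337, 554 and 545 with high FAR1, against 184, 148 and 183 in wild type (1.34, adjusted p 0.006), TEC1 was the other rise, and DSE4, a daughter-cell glucanase, fell, with a log2 change of -0.83 (adjusted p 0.019). HO, CLB1, HTB2 and DSE4 were called with the FAR1OE-labelled arrays alone as well, at adjusted p 0.043, 0.015, 0.04 and 0.037; HTZ1 was not (0.11).

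**Figure D3:**
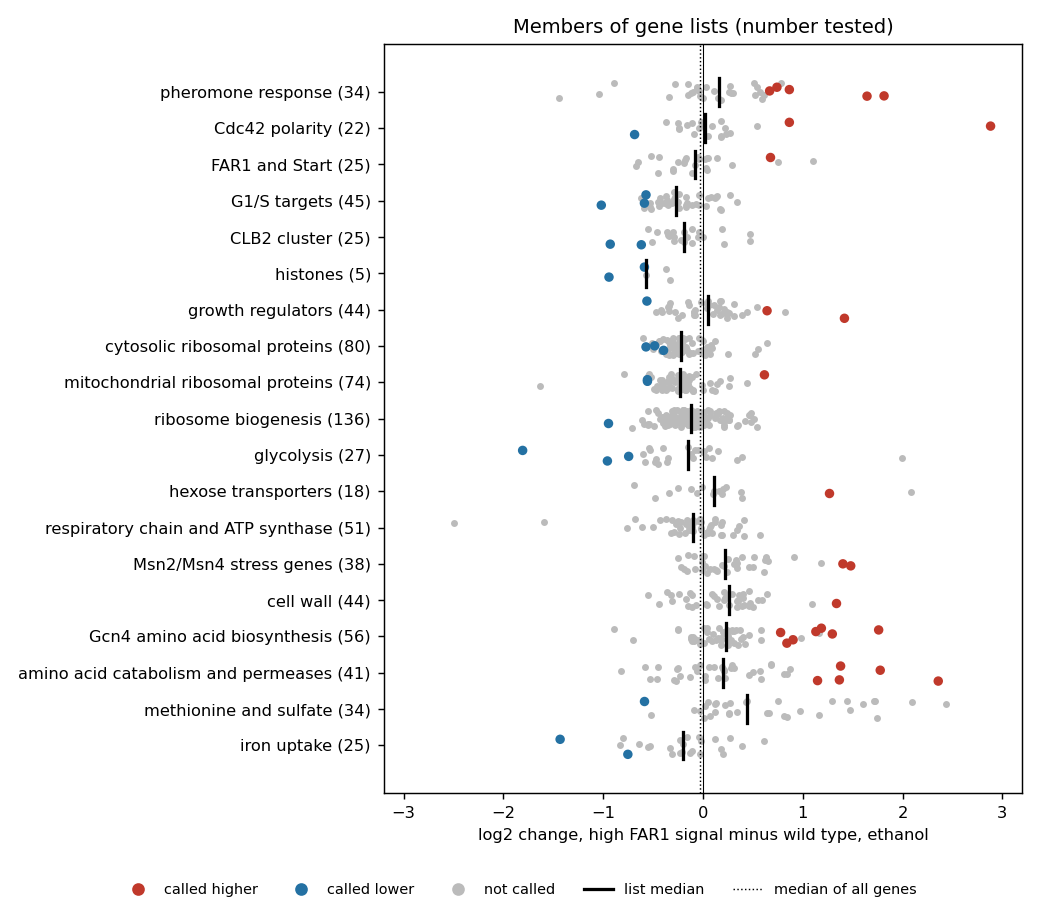
Log2 change on the high FAR1 arrays relative to wild type in ethanol (horizontal axis) for every tested member of 19 gene lists, with the number tested in brackets; the vertical position within a list is spread for legibility only. Black bars are list medians, the dotted line is the median of all genes (-0.03), and most lists hold 3 called members or fewer.

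Of 80 tested cytosolic ribosomal protein genes, 0 rose and 3 fell, with 1.19% of all genes lower. At an unadjusted p under 0.05 there were 29 of the 80, against 895 of 5545 over all genes, and 15 of the 80 changes were positive. The median was -0.23, against -0.03 over all genes, and on the deposited scale -0.25, against 0.13. The 3 were RPS1A (-0.40, adjusted p 0.047), RPL24A (-0.48, adjusted p 0.035) and RPL31B (-0.57, adjusted p 0.034). RPL24A read 854, 817 and 608 on the high FAR1 arrays, against 828, 982 and 1236 in wild type, so the groups overlapped before normalization. Most ribosomal protein genes occur as near-identical pairs, and 80 of the 137 listed had a probe set of their own that was tested. Of 136 ribosome biogenesis genes, 0 rose and 1 fell (RRP36, -0.95, adjusted p 0.031), with a median of -0.12 that was 0.06 on the deposited scale. The 40 genes of RNA polymerases I and III gave 0 calls in limma (10 at an unadjusted p under 0.05) and a median of -0.14, with 0.05 on the deposited scale.

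SFP1 read 32.9, 30.9 and 42.1 on the high FAR1 arrays, against 34.9, 29.5 and 42.1 in wild type. The groups overlapped, and the log2 change of -0.21 ± 0.18 did not pass the test (adjusted p 0.62). Of 44 growth regulators, 2 rose and 1 fell, with 1.26% of all genes higher and 1.19% lower, and 12 were at an unadjusted p under 0.05. GPR1, the receptor that senses glucose and sucrose upstream of protein kinase A, read 136, 177 and 182 with high FAR1, against 52.2, 52.8 and 68.9 in wild type, and rose by 1.42 ± 0.15 (adjusted p 1e-05). Absent FAR1 arrays read 37.4, 86.7 and 60.1, and high minus absent FAR1 was 1.49 (adjusted p 5.4e-06). Its partner, the G protein subunit GPA2, was not called (-0.34, adjusted p 0.23).

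RIM15, a kinase of entry into quiescence, read 51.5, 50.9 and 61.8 with high FAR1, against 33.9, 27.3 and 30.6 in wild type (0.64, adjusted p 0.039). HMO1, which binds ribosomal DNA and ribosomal protein promoters, fell, with a log2 change of -0.56 (adjusted p 0.049), though its groups overlapped before normalization. Neither was called with the FAR1OE-labelled arrays alone (adjusted p 0.13 and 0.18). The kinases TOR1 (-0.34), TOR2 (0.21) and SCH9 (0.16), the GTPase RAS2 (-0.33), and the ribosomal protein gene factors IFH1 (0.44) and FHL1 (-0.08) were not called. Among 74 mitochondrial ribosomal protein genes, RML2 rose (0.61, adjusted p 0.038), MRPL20 (-0.56, adjusted p 0.032) and MRPL32 (-0.56, adjusted p 0.035) fell, and the median was -0.24. None of these 3, nor RPL24A, RPL31B or RRP36, was called with the FAR1OE-labelled arrays alone, and MRPL32 overlapped before normalization.

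Glycolytic genes fell where they changed. ENO2, the enolase isoform of fermenting cells, read 292, 272 and 323 on the high FAR1 arrays, against 687, 947 and 1200.3 in wild type. Every high FAR1 array lay below every wild type array, though groups without overlap were a condition of the rule for the largest changes. The log2 change was -1.81 ± 0.18 (adjusted p 5.4e-06). The absent FAR1 arrays read 681, 1355 and 862, and the difference from them was -1.84 ± 0.18 (adjusted p 4.8e-06). ENO1, its near-identical paralog, read 410.2, 690.5 and 569 with high FAR1, against 961, 876 and 1151 in wild type (-0.96, adjusted p 0.033), and cross-hybridisation between both probe sets was not tested. PGK1, phosphoglycerate kinase, read 791, 897 and 762 with high FAR1, against 1104, 1179 and 1557 in wild type, and fell, with a log2 change of -0.74 ± 0.13 (adjusted p 0.0031). These 3 were the only genes called among 27 of glycolysis, and the median was -0.15.

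GPM3, a homolog of phosphoglycerate mutase, rose. It read 38.7, 39.2 and 41.4 on the high FAR1 arrays, 8.1, 13.5 and 6.2 on the absent FAR1 arrays and 8.5, 8 and 6.4 in wild type, a log2 change of 2.19 ± 0.19 relative to wild type (adjusted p 1e-06). HXT2, a high-affinity glucose transporter, read 19.2, 19.4 and 20.2 with high FAR1, against 11.2, 4.8 and 6.9 in wild type (1.26, adjusted p 0.033). It was the 1 gene called in a list of 18 hexose transporters, glucose sensors and regulators. Its call was lost with the FAR1OE-labelled arrays alone (adjusted p 0.079). Of 30 genes of gluconeogenesis and ethanol use, ALD2, an aldehyde dehydrogenase, alone was called. ALD2 read 31.9, 40 and 36.8 with high FAR1, against 11.8, 9.1 and 10.2 in wild type, and rose by 1.63 ± 0.17 (adjusted p 1.5e-05); ALD3 is nearly identical to it. The 51 respiratory chain and ATP synthase genes and the 24 of the tricarboxylic acid cycle gave 0 calls in limma (7 and 6 at an unadjusted p under 0.05), with medians of -0.10 and 0.03. Regulators are counted in both lists, the HAP genes in the first and the RTG genes in the second.

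Few members of the Msn2/Msn4, heat shock and cell wall lists were called, and those rose. Of 38 targets of the stress factors Msn2 and Msn4, 2 rose and 0 fell, with 1.26% of all genes higher. Their median was 0.22, beside 0.19 for absent FAR1 minus wild type. For high minus absent FAR1 it was 0.01, with 2 genes higher and 0 lower. DDR48, a stress protein of the cell surface, read 964, 1519.5 and 865 on the high FAR1 arrays, against 411, 413 and 510.1 in wild type, a rise of 1.48 ± 0.20 (adjusted p 0.00027) seen with both of its probe sets. SPI1, a cell wall protein, read 25.7, 26.7 and 19.1 with high FAR1, against 7.4, 6.4 and 9.9 in wild type (1.40, adjusted p 0.00064). SSA3, a stress-induced Hsp70, was the 1 call of 33 heat shock genes, at 35.3, 62.4 and 43.4 with high FAR1 against 9, 15.6 and 10.6 in wild type (1.79, adjusted p 0.0012). MSN2 (-0.47, adjusted p 0.08) and MSN4 (0.14, adjusted p 0.78) were not called. Of 44 cell wall genes, PIR3 alone was called and the median was 0.26. That list had a median of -0.03 for absent FAR1 minus wild type and 0.25 for high minus absent FAR1, with 4 genes higher in the latter.

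Of 41 tested genes of amino acid catabolism and permeases, 5 rose and 0 fell, with 1.26% of all genes higher, and the median was 0.20. MEP2, the high-affinity ammonium permease, read 201, 339 and 284 on the high FAR1 arrays, against 56.7, 36.7 and 64.1 in wild type. The groups were apart by a log2 change of 2.36 ± 0.31 (adjusted p 0.00025). GDH3, a glutamate dehydrogenase of non-fermentative growth, read 679, 1018 and 779 with high FAR1, against 253, 209 and 261 in wild type, and rose by 1.78 ± 0.27 (adjusted p 0.00072). DAL5, the allantoate permease, read 51.7, 91 and 87.9 with high FAR1, against 25.4, 20.6 and 30.9 in wild type (1.38, adjusted p 0.003), but its 3 probe sets disagreed, between -1.37 and 1.38, and 1 was called. CAN1 was among the 5 as well. MEP2 (log2 difference 1.76), GDH3 (1.35) and DAL5 (1.20) also exceeded the absent FAR1 arrays (adjusted p 0.0043, 0.0099 and 0.0098).

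Targets of Gcn4, the activator of amino acid synthesis, included genes that were as high on the absent FAR1 arrays. Of 56 tested, 7 rose and 0 fell, with 1.26% of all genes higher. The median was 0.23 and 44 of the 56 changes were positive, against 2536 of 5545 over all genes. HIS4 of histidine synthesis read 248, 445 and 306 on the high FAR1 arrays, against 122, 101 and 138 in wild type, a rise of 1.30 ± 0.26 (adjusted p 0.0093). ARG1 of arginine synthesis read 362, 699.9 and 449.6 with high FAR1, against 197, 162 and 233 in wild type, a rise of 1.19 ± 0.20 (adjusted p 0.0026). On the absent FAR1 arrays both stood at like levels, HIS4 at 249, 333 and 333 and ARG1 at 437, 612 and 439. Their differences from high FAR1 were -0.02 ± 0.26 and -0.03 ± 0.20 (adjusted p 0.99 and 0.98).

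ARG7, also of arginine synthesis, rose by 0.84 (adjusted p 0.01), with -0.14 for high minus absent FAR1. LYS9 of lysine synthesis read 67.1, 91.4 and 123 with high FAR1, against 24.9, 23.1 and 23.9 in wild type (1.76 ± 0.26, adjusted p 0.00069). LYS9 read 30.5, 68.2 and 43.2 on the absent FAR1 arrays, and high minus absent FAR1 was 0.92 ± 0.26, which did not pass the test (adjusted p 0.1). The array labelled far1 deletion was the highest of its group for LYS9, and the gene was called without it too (adjusted p 0.0062). GCN4 itself was not called (0.39, adjusted p 0.081). The 34 genes of methionine and sulfate metabolism had a median of 0.44 with 30 positive, but SAH1 alone was called and it fell (-0.60, adjusted p 0.024). Absent FAR1 minus wild type had a median of 0.72 for this list, and high minus absent FAR1 -0.07. ADE17 of purine synthesis rose by 1.65 (adjusted p 0.021) and was not called with the FAR1OE-labelled arrays alone (adjusted p 0.071).

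**Figure D4:**
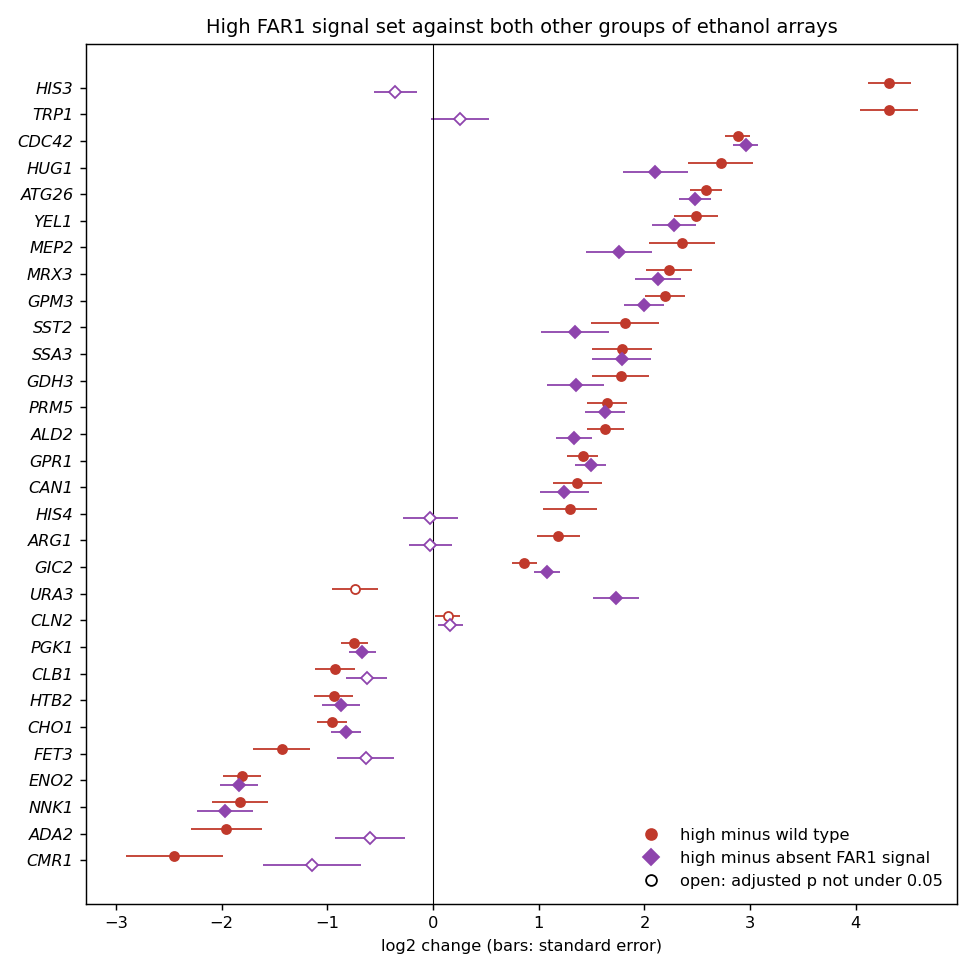
Log2 changes with standard errors (horizontal axis) of 30 genes on the high FAR1 arrays relative to wild type (red circles) and relative to the absent FAR1 arrays (purple diamonds); open symbols did not pass the adjusted threshold of 0.05. Both comparisons use the same high FAR1 arrays; HIS3, TRP1, HIS4 and ARG1 lay near 0 in the second, and CDC42, ATG26, GPM3, ENO2 and NNK1 at like sizes in both.

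Further large rises came from genes of varied roles. ATG26, a sterol glucosyltransferase, read 184, 195 and 202 on the high FAR1 arrays, against 28.2, 28.7 and 36.4 in wild type, with a log2 change of 2.58 ± 0.15 (adjusted p 3.9e-09). YEL1, an exchange factor for the GTPase Arf3, read 51.6, 61.3 and 71.2 with high FAR1, against 8.6, 10 and 9.8 in wild type (2.49 ± 0.21, adjusted p 7.9e-07). MRX3, a mitochondrial protein, read 170.4, 290.4 and 143 with high FAR1, against 41.6, 33 and 42.7 in wild type (2.24 ± 0.22, adjusted p 5.4e-06). In each of these 3 genes the array labelled far1 deletion lay beside the FAR1OE-labelled arrays and far from wild type. The rule that named them asked for groups without overlap, so the side on which that array lay was part of the choice. The absent FAR1 arrays read 27 to 42.6, 8.5 to 17.8 and 34 to 55.8 for ATG26, YEL1 and MRX3.

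HUG1, an inhibitor of ribonucleotide reductase induced by replication stress, read 22, 24.6 and 12.2 with high FAR1, against 3.4, 1.2 and 2.6 in wild type (2.72 ± 0.31, adjusted p 3.4e-05). The wild type values are near the floor, and with the 25th percentile as pseudocount the log2 change was 1.86. DPI8 read 177, 318 and 124 with high FAR1, against 46, 41.9 and 53.2 in wild type (1.94 ± 0.28, adjusted p 0.00059), and RTS3, a component of a phosphatase complex, 64.2, 103 and 69.5 with high FAR1, against 20, 18.5 and 20.9 in wild type (1.79 ± 0.22, adjusted p 7.9e-05). RTS3 was 1 of 13 genes of the 136 called with the groups as labelled too (adjusted p 0.035).

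NNK1, a kinase linked to nitrogen metabolism, fell. It read 10.1, 6.4 and 8.6 on the high FAR1 arrays, 24.1, 46.4 and 29.2 on the absent FAR1 arrays and 34.3, 22.9 and 26 in wild type, a log2 change of -1.83 ± 0.27 relative to wild type (adjusted p 0.0006) and -1.97 relative to absent FAR1 (adjusted p 0.00033). CMR1, a DNA-binding protein of the damage response, read 1.6, 0.6 and 5.3 with high FAR1, against 10.3, 11.9 and 14.8 in wild type, a log2 change of -2.45 ± 0.46 (adjusted p 0.006) at values near the floor, and -1.49 with the 25th percentile as pseudocount. ADA2, a subunit of the SAGA coactivator, read 8, 4.5 and 5.6 with high FAR1, against 18.5, 18.2 and 34.9 in wild type (-1.95 ± 0.33, adjusted p 0.0026). For CMR1 and ADA2 the absent FAR1 arrays, at 3.5 to 5.8 and 7.3 to 11.2, also lay below wild type, and the difference of high from absent FAR1 did not pass the test (adjusted p 0.28 and 0.48).

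Lipid, metal and RNA genes made up other falls. CHO1, which makes phosphatidylserine, read 116, 151 and 147 on the high FAR1 arrays, against 179, 199.5 and 297 in wild type (-0.95 ± 0.14, adjusted p 0.00069). PSD1, which converts phosphatidylserine to phosphatidylethanolamine, read 63.2, 58.2 and 60.2 with high FAR1, against 94.8, 105 and 128 in wild type (-1.13 ± 0.18, adjusted p 0.0011). Both enzymes of this route were below wild type on every high FAR1 array, though the rule for the largest changes asked for groups without overlap. FET3 and FTR1, the oxidase and the permease of high-affinity iron uptake, were the 2 genes called of 25 for iron uptake, with 1.19% of all genes lower. Their log2 changes were -1.43 ± 0.27 and -0.75 ± 0.14 (adjusted p 0.006 and 0.0055). The iron list had a median of -0.20, beside -0.25 for absent FAR1 minus wild type and -0.002 for high minus absent FAR1. Neither of the latter comparisons called a gene of the list. Wild type replicates of FET3 were far apart (183, 435 and 658), and the high FAR1 arrays (151, 190.5 and 136 with high FAR1) overlapped them before normalization.

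AHP1, a peroxiredoxin, read 167, 269.6 and 123 with high FAR1, against 258, 321 and 458 in wild type (-1.16 ± 0.22, adjusted p 0.006), and overlapped before normalization, as did FTR1. NRG2, a repressor of glucose-repressed genes, read 18, 18.2 and 14.2 with high FAR1, against 27.5, 25.9 and 32.7 in wild type, and fell, with a log2 change of -0.97 (adjusted p 0.006). PHO86, needed for export of the phosphate transporter, fell, with a log2 change of -0.86 (adjusted p 0.00059). The small nucleolar RNA SNR63 (-1.32, adjusted p 0.0031) and the ribosomal RNA locus RDN37-1 (-1.29, adjusted p 0.01) were lower too; RDN37-1 is a repeat with 7 probe sets, of which 1 was called.

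The direct comparison of high with absent FAR1 sets arrays of the FAR1OE and far1 deletion labels against each other by their FAR1 signal. It gave 90 genes (1.62%), 55 higher (0.992%) and 35 lower (0.631%), and its 2 groups had like BioDn ratios. The comparison of absent FAR1 with wild type gave 12 (0.216%), 10 higher (0.18%) and 2 lower (0.0361%). These comparisons share arrays with the first, so the values stand side by side and are no separate evidence. On high minus absent FAR1, CDC42, ATG26 (2.48), YEL1 (2.28), MRX3 (2.13) and HUG1 (2.10) had the largest positive differences among genes also called against wild type. ENO2, NNK1, SNR63 (-1.45), YLL053C (-1.32) and AHP1 (-1.23) had the largest negative ones. Without the 2 arrays that went against their label the count of 90 became 45, on the deposited scale 34, and as labelled 0 (limma, 309 at an unadjusted p under 0.05). The count of 12 became 5 without wild type 2 and 7 without wild type 3.

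Glucose cultures gave arrays that the rule did not use. There FAR1 read 1020, 966.2 and 557 on the 3 FAR1OE-labelled arrays, against 19.7, 27.3 and 22.8 in wild type, and 482 genes changed (8.69%), 349 higher (6.29%) and 133 lower (2.4%). On the deposited scale there were 1001, 954 higher and 47 lower. Without 2 FAR1OE-labelled glucose arrays whose 5′ actin probe set was dim (3′ to 5′ log2 ratios of 8.06 and 8.87) there were 69, and with the BioDn block 48. Of the 70 genes higher in ethanol, 13 were also higher in glucose (18.6% of the ethanol list and 3.73% of the glucose list). Of the 66 lower in ethanol, 13 were also lower in glucose (19.7% and 9.77%), and 1, CMI8, changed in opposite directions. HIS3 (3.78), TRP1 (3.87), YEL1 (0.92), ALD2 (1.23), GDH3 (1.17) and DAL5 (1.02) were among the shared rises, given as log2 changes in glucose. CMR1 (-3.55), ADA2 (-2.03), RDN37-1 (-1.42), HMO1 (-0.54) and LAG1 (-1.18), a ceramide synthase not called in ethanol with the FAR1OE-labelled arrays alone, were among the shared falls. Across the 136 genes the 2 changes correlated at r = 0.678, with HIS3, TRP1 and CMR1 at the ends, and across all 5545 genes at 0.177; genes are not independent.

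**Figure D5:**
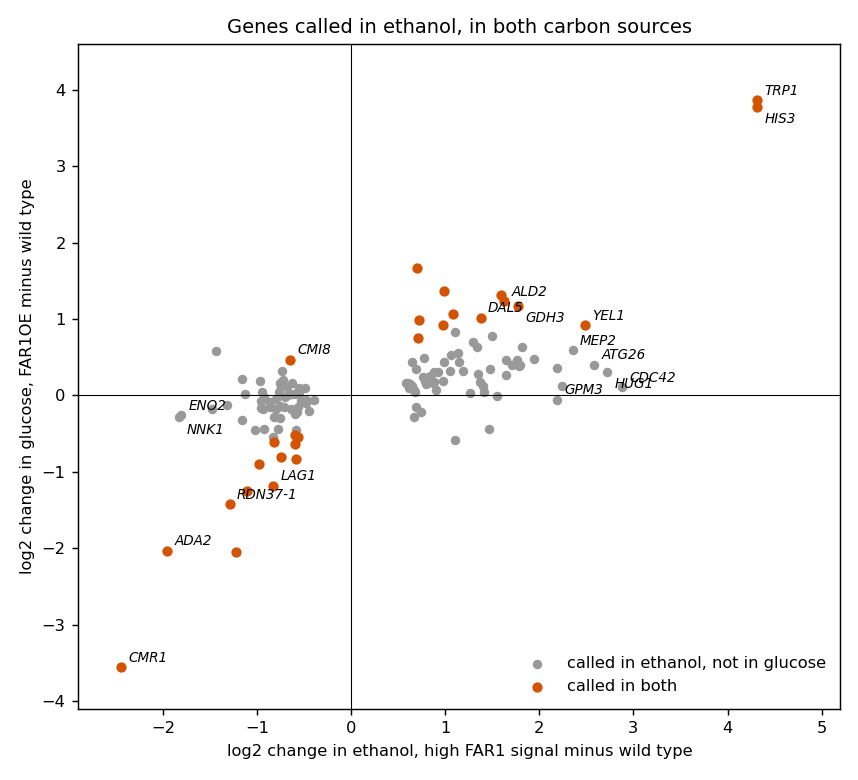
Log2 change in glucose, FAR1OE minus wild type (vertical axis), against log2 change in ethanol, high FAR1 minus wild type (horizontal axis), for the 136 genes called in ethanol. Orange points were called in both carbon sources; CDC42, ATG26, HUG1 and GPM3 lay far right near 0 in glucose.

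The test of the difference between both changes, high FAR1 minus wild type in ethanol and FAR1OE minus wild type in glucose, gave 127 genes (2.29%), 26 with a higher change in ethanol (0.469%) and 101 with a lower one (1.82%). In neither change can FAR1 level be told apart from strain and plasmid. CDC42 led the first group. In glucose it read 232, 319 and 250.2 on the FAR1OE-labelled arrays, against 145, 179 and 213 in wild type, a log2 change of 0.11 ± 0.12 (adjusted p 0.62), and the difference between carbon sources was 2.77 ± 0.17 (adjusted p 2.4e-08). GPM3 (2.25), ATG26 (2.18), MRX3 (2.11), GPR1 (1.37) and HUG1 (2.41) followed, at adjusted p between 2.3e-05 and 0.011. ENO2 differed the other way (-1.55, adjusted p 0.0042), with 2281, 3724 and 1753 on the FAR1OE-labelled glucose arrays, against 2262, 2316 and 3368 in wild type.

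NDE2, an external NADH dehydrogenase, rose in glucose (2.92, adjusted p 0.00012) and had a change of -0.68 in ethanol that was not called. The stress gene DDR2 (1.24 in glucose, -0.15 in ethanol) and TIF6, a ribosome assembly factor (1.43 and 0.27), were of the same kind. Without the 2 glucose arrays with dim 5′ actin the count of 127 became 17, and with the FAR1OE-labelled ethanol arrays alone it was 57 (1.03%). It became 40 without wild type 2, 45 without wild type 3, 57 without the array labelled far1 deletion 3, 73 without FAR1OE 2 and 79 without wild type 1, and 34 on the deposited scale.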

How the data were processed

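RNA was measured on Affymetrix yeast S98 arrays, 1 sample per array and 3 per group. The deposited values are linear probe set intensities made by the authors with GCOS, per the submitters' processing notes; no version, algorithm or scaling is named in the sources used here. How the arrays were scaled is therefore unknown, and a scaling that differs between arrays would shift all genes of an array together. Of 9335 probe sets, 60 were controls, 6504 matched 1 gene, 328 several and 2443 none in the platform annotation, with names updated through RefSeq; genes were named only from probe sets with 1 gene. A gene with several probe sets (315 genes) was read from the brightest.

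Intensities plus 0.4, their 10th percentile, were put on the log2 scale and quantile normalized. A fold change on this scale understates the change of dim genes. Genes above the 20th percentile of the array on at least 3 arrays were kept, which left 5545 without FAR1. A model of 6 group means over all 18 arrays was fitted with limma 3.58.1 in R 4.3.3 (lmFit, eBayes with an intensity trend), p-values were adjusted by Benjamini-Hochberg over all genes tested, and a gene was called under 0.05. The steps were tested on simulated data. The number of arrays limits the precision. A single value in 3 against 3 arrays cannot go below p = 0.1 in an exact permutation test, so none was used. Replicates of a group are independent cultures per the labels, and same-numbered arrays did not deviate together (r = -0.14, -0.02 and -0.13 between high FAR1 and wild type).

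The arrays, the comparison and the 40 gene lists were chosen with earlier results of these data known. The text names the marker genes and, with the groups of 3 not overlapping, the 12 largest changes in each direction among genes called with all 3 high FAR1 arrays and with the 2 FAR1OE-labelled ones. It also names the 10 largest differences in each direction from the absent FAR1 arrays, the 6 leading differences between carbon sources in each direction, up to 4 called genes of each list, and any member of the Start, polarity and growth regulator lists. Not every gene that this rule admits is described. Genes beyond it, chosen after their values were seen, are ECM22 and BNA5 as neighbours of CDC42, STE12, CMI8, SVP26, COX26, SKT5, RHO3 and VMA8, beside the cell type markers. Alternatives were other scalings, pseudocounts, filters, sample sets and blocks. Other parts of the series were used only where stated.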

Additional observations from a re-analysis of the deposited data

Results flagged for a closer look

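The change from wild type of the high FAR1 arrays in ethanol differed from that of the FAR1OE-labelled arrays in glucose, by a test of the difference itself, in 127 genes, and in 17 without the 2 glucose arrays with dim 5′ actin. Strain, plasmid and FAR1 level cannot be told apart in either change. The difference of log2 changes, ethanol minus glucose, was 2.77 for CDC42, 2.41 for HUG1, 2.25 for GPM3, 2.18 for ATG26, 2.11 for MRX3 and 1.37 for GPR1. It was -3.60 for NDE2, -1.60 for TDH1, a glyceraldehyde-3-phosphate dehydrogenase, -1.55 for ENO2, -1.44 for SOM1, -1.39 for DDR2 and -1.17 for TIF6. These are the 6 leading genes of each direction by adjusted p.

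Probe sets outside the gene-level comparison also separated high FAR1 from wild type in ethanol. Of 307 tested that matched several genes, 22 passed the test (7.17%), and of 1758 that matched no gene, 48 did (2.73%). Both kinds were fitted in the same way as the genes. Most of the 22 had YPR137C-B or YML039W in overlapping sets of matched genes, and all of those rose. The 22 are therefore not separate genes, and 7.17% cannot be set against the share of genes called.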

How the results depend on the processing

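Of the 69 called genes that the naming rule admits, none changed direction under any alternative run, and all 69 stayed called with a pseudocount of 1 or a filter at the 40th percentile. With the FAR1OE-labelled arrays alone 53 stayed called, on the deposited scale 32, with the BioDn ratio as a block 17 and with the groups as labelled 9. The 136 genes called in high FAR1 against wild type became 21 with the groups as labelled, 46 on the deposited scale (43 shared) and 29 with the BioDn block (19 shared), and leaving out 1 ethanol array gave 58 to 145, the lowest being 58 without FAR1OE 2, 61 without wild type 2 and 67 without wild type 3. The 90 genes of high against absent FAR1 became 0 as labelled, where 2 arrays lie in the other group, and 34 on the deposited scale; leaving out the 2 arrays opposite to their label, an alternative chosen after seeing the data, gave 45, and leaving out 1 array gave 63 to 104. The 12 genes of absent FAR1 against wild type became 4 as labelled, 7 on the deposited scale, 5 without the 2 opposite arrays and 5 to 15 without 1 array (5 without wild type 2, 7 without wild type 3). The 482 genes of glucose became 1001 on the deposited scale, 69 without the arrays with a dim 5′ actin probe set and 48 with the BioDn block. The 127 genes of the difference between carbon sources became 57 with the FAR1OE-labelled arrays alone, 10 as labelled, 34 on the deposited scale, 17 without the dim actin arrays, 71 without the intensity trend, 41 without the 2 opposite arrays and 40 to 144 without 1 array (40 without wild type 2, 45 without wild type 3, 57 without the array labelled far1 deletion 3, 73 without FAR1OE 2 and 79 without wild type 1). Fewer arrays enter the fits that leave arrays out; the cause of the other shifts was not tested. With the replicate number as a block, though the numbers do not pair the samples, 134 genes were called in high FAR1 against wild type, 86 against absent FAR1 and 99 in the difference between carbon sources.

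Wild type and high FAR1 lie on opposite sides of the BioDn ratio in ethanol, as do wild type and the FAR1OE-labelled arrays in glucose. Only the far1 deletion glucose group has arrays on both sides, at 0.174 for replicate 1 and 0.476 and 0.369 for replicates 2 and 3. The block effect was therefore estimated from that group alone, and every call with the block depends on it. Dim genes such as SST2, HUG1 and CMR1, near the floor, have large relative error.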

Other observations

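Of the 48 probe sets matched to no gene, 5 separated the 3 high FAR1 ethanol arrays and the 3 FAR1OE-labelled glucose arrays from the other 12 arrays of the series without overlap. Probe set 3953_at read 0.4, 0.1 and 1.0 on the high FAR1 arrays, the last being the array labelled far1 deletion 3, against 170.7, 158.6 and 186.2 in wild type in ethanol. On the absent FAR1 arrays it read 123.9, 213.8 and 154.7, the last being the array labelled FAR1OE 3. On the FAR1OE-labelled glucose arrays it lay between 0.1 and 0.3. Probe sets 3953_at, 3954_at and 3952_at read at most 2.1 on the high FAR1 arrays, near the 0.4 added before taking logs, so the size of their log2 changes depends on that constant and is not given (limma, adjusted p 1.7e-13, 1.1e-09 and 1.0e-08). The 5 were picked for this split, so the side on which any array lies is part of the choice.

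Probe set 9296_at, also matched to no gene, read 53.8, 71.9 and 46.7 on the high FAR1 arrays and at most 3.0 on each of the 15 other arrays, the FAR1OE-labelled glucose arrays included.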
